A study of Mus musculus with 157 samples.

Results

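Translation initiation factors (eIFs) bring the initiator tRNA, the small ribosomal subunit and the mRNA cap together, and the Eif genes examined here encode these factors and the proteins that regulate them. The set held the 54 protein-coding genes whose symbol begins with Eif and a digit, out of 19600 genes in the count table, 16519 of them protein coding. B cells from spleens of the strain C57BL/6Babr were activated in culture with LPS (bacterial lipopolysaccharide) at 10 µg/ml. They then received nothing more (LPS, 48 h), etoposide at 20 µM for 4 h after 48 h of LPS (LPS+ET), or etoposide after 47 h of LPS and 1 h of the ATM inhibitor KU55933 at 10 µM (LPS+ET+KU). Etoposide poisons topoisomerase II and breaks DNA, and ATM is a kinase that responds to such breaks. All 3 groups were treated with cycloheximide at 100 µg/ml for 3 min before lysis. Cytoplasmic extracts were separated on sucrose gradients, 4 gradients per treatment, and 13 fractions of each were sequenced from the 3′ ends of mRNAs. Fractions 4 to 7 held monosomes, 8 to 10 light polysomes and 11 to 16 heavy polysomes. Gradients are named by the library pool in the column names (LUL15 to LUL18), and lists of 4 values follow that order.

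Initiation proceeds through a fixed order of factors. eIF2, with GTP, carries the initiator tRNA to the small subunit, eIF1, eIF1A, eIF5 and the large eIF3 complex help that subunit scan for the start codon, and eIF4F (the cap binder eIF4E, the scaffold eIF4G and the helicase eIF4A) loads the mRNA. Phosphorylation of eIF2 by its kinases blocks the exchange factor eIF2B, and the eIF4E binding proteins compete with eIF4G for eIF4E. mRNAs of several of these factors, like those of ribosomal proteins, belong to the TOP class, whose translation follows growth signals through a pyrimidine tract at the very start of the mRNA.

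Library totals of the 156 fractions ran from 14724 to 4170688 counts (median 811932), and 12 libraries were under 100000, among them 4 of the 6 heavy polysome libraries of LPS+ET in pool LUL16. Gradient totals ran from 6404957 to 21449781. RNA of the fractions was used at the same concentration and in amounts that varied between libraries, so a library total does not measure how much mRNA a fraction held, and less ribosome-bound mRNA per cell cannot be told apart from fewer cells with it. Levels and tests on summed fractions weight each fraction by its library total, so they also carry how deeply each class was sequenced in each gradient. The summed level of 4 B cell markers lay between 1463 and 2382 CPM (counts divided by the total of their gradient and brought to a common scale) in every gradient. The sum of 3 T cell markers reached at most 2.47 CPM. The sum of 3 myeloid markers was 20.9 to 44.9 CPM in LPS, 20.0 to 101.6 in LPS+ET and 38.3 to 65.9 in LPS+ET+KU, and its part in the results was not tested.

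Together the Eif genes took 1214745 counts, 0.774% of all. Levels in LPS, as mean CPM over fractions 4 to 16 ± SD (n = 4), spanned from 1168 ± 160 for Eif5a, a factor that helps elongating ribosomes over difficult residues, and 753 ± 172 for Eif4g2 to 0.162 ± 0.122 for Eif4e3. Each mRNA gives 1 tag at its 3′ end, so these counts were not divided by length. The eIF3 subunits were far from equal at this level, from 674 ± 47.9 CPM for Eif3h and 325 ± 12.4 for Eif3f to 39.01 ± 16.2 for Eif3e and 22.01 ± 2.16 for Eif3m, and lowest for Eif3j2 (2.60 ± 2.96) and Eif3j1 (0.485 ± 0.229). Among the helicases, Eif4a1 was at 171 ± 49.4 CPM and Eif4a2 at 2.40 ± 0.344. The main site counted for Eif4a2, at 23112474 on the plus strand, lies before the annotated gene end at 23114135. Whether mRNAs with other ends went uncounted was not tested. Eif4e3 and Eif3j1 held 0 to 8 and 0 to 12 counts per gradient and were left out of all tests by the expression filter. Reads of close relatives (Eif3j1 and Eif3j2, Eif1 and Eif1b, Eif4a1 and Eif4a2, Eif2s3x and Eif2s3y) may have been split by the counting. The site counted for Eif4e3 also overlaps Gm20696 on the same strand.

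The position of each mRNA on the gradient was examined first, because it differed most between members. In LPS, heavy polysomes were compared with monosomes of the same gradient, with edgeR's quasi-likelihood test on 51 Eif genes that passed the filter. At a Benjamini-Hochberg adjusted p under 0.01, 35 of 51 differed, 20 higher and 15 lower in heavy polysomes, against 59.4% of all 9659 genes tested (29.5% higher and 29.9% lower). The median over the members was 0.20, on a log2 scale on which the typical gene is near 0. In LPS+ET the test called 15 members higher and 12 lower out of 50 (40.3% of all genes, 21.9% higher and 18.4% lower). In LPS+ET+KU it called 20 higher and 16 lower out of 51 (50.2% of all genes, 24.5% higher and 25.7% lower). The zero of this scale is set by TMM, edgeR's scaling to a typical gene. Scaling to library totals alone moved the median of all genes from 0.02 to 0.74 in LPS, from 0.17 to 0.84 in LPS+ET and from 0.02 to 0.78 in LPS+ET+KU. The member calls then split 33 higher and 10 lower, 27 and 8, and 32 and 11. Shares of all genes by direction are not given for this scaling, so these splits do not set the members apart from other genes.

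**Figure D1:**
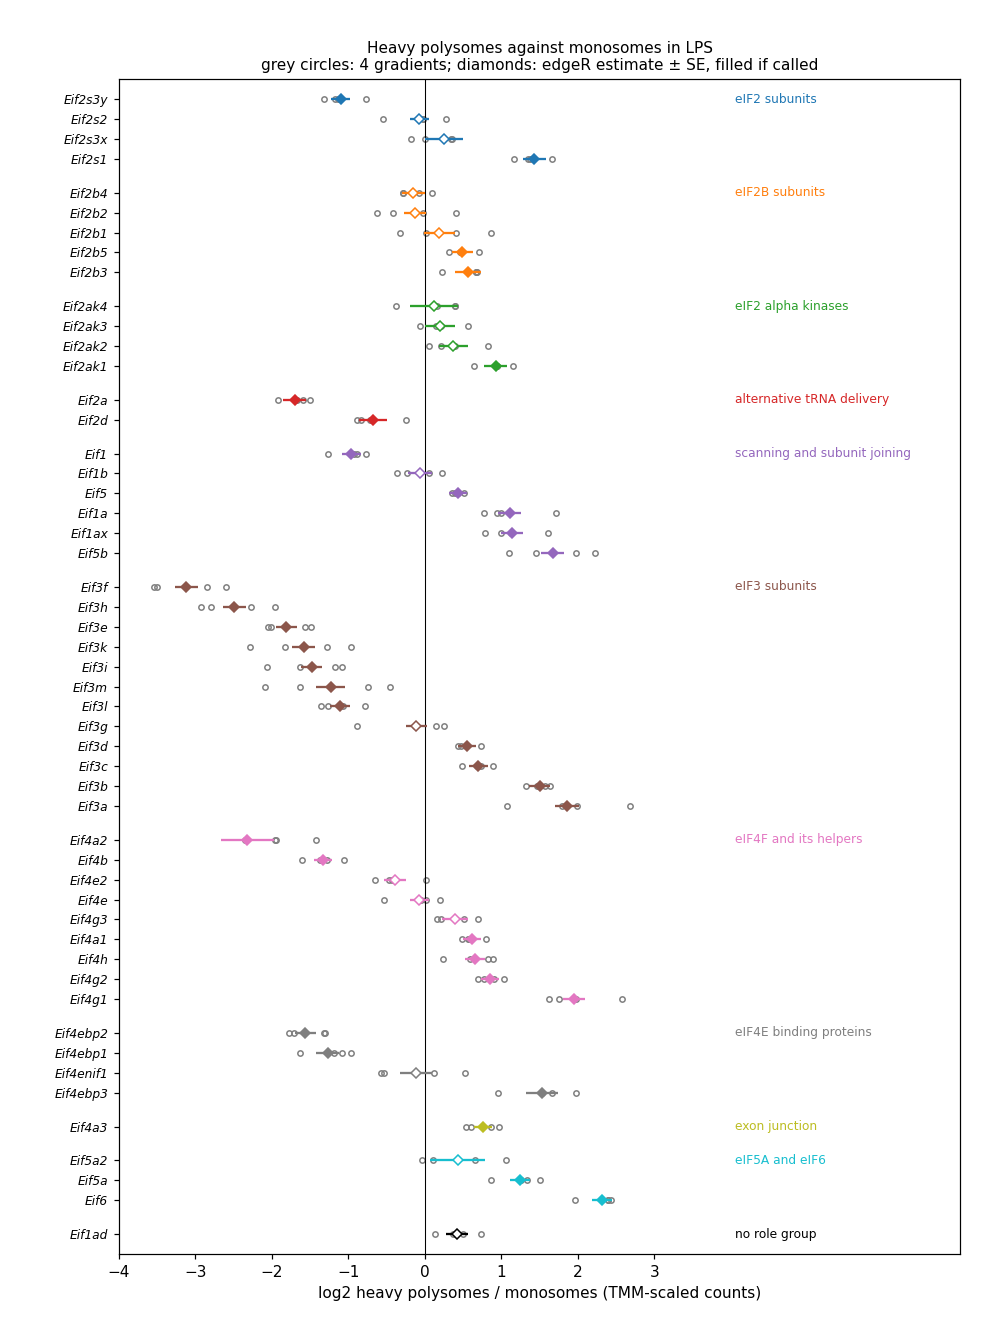
Log2 ratio of heavy polysomes to monosomes in LPS for the 51 Eif genes tested, grouped by role; grey circles are the 4 gradients, diamonds the edgeR estimate ± SE, filled where the adjusted p is under 0.01. Among the eIF3 subunits the estimates run from -3.12 (Eif3f) to 1.86 (Eif3a), and Eif6 is highest of all at 2.32.

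The eIF3 complex showed the widest spread. Of 12 subunit mRNAs tested in LPS, 4 were higher in heavy polysomes (Eif3a, Eif3b, Eif3c and Eif3d), 7 were lower (Eif3e, Eif3f, Eif3h, Eif3i, Eif3k, Eif3l and Eif3m) and Eif3g was not called, at -0.11 ± 0.14 (SE). Eif3a and Eif3b encode core subunits that scaffold the complex. Eif3a had log2 heavy to monosome ratios of 1.79, 1.08, 2.68 and 1.99, for an estimate of 1.86 ± 0.16 (edgeR adjusted p 1.07e-11). Eif3f, which together with Eif3h forms the pair of subunits with an MPN domain, had ratios of -2.85, -2.60, -3.54 and -3.50 and an estimate of -3.12 ± 0.15 (adjusted p 4.87e-18). Eif3h was at -2.27, -1.96, -2.93 and -2.79, with -2.49 ± 0.15 (adjusted p 1.28e-15). All 4 gradients of Eif3f and Eif3h lay below all 4 of Eif3a. In CPM within each class, Eif3f had 949, 899, 982 and 929.6 in monosomes and 210.4, 224, 156 and 139 in heavy polysomes. Eif3e, often described with the TOP mRNAs, had ratios of -1.56, -1.49, -2.05 and -2.01 (estimate -1.81 ± 0.14). The direction of these 11 calls was the same when libraries were scaled to their totals, but the calls of Eif3l (-0.39) and Eif3m (-0.51) were then lost. In LPS+ET, 2 of 12 eIF3 subunits were called higher (Eif3a, 2.31 ± 0.23, and Eif3b, 1.69 ± 0.22) and the 7 named above lower. In LPS+ET+KU, 3 of 13 were called higher (Eif3a, Eif3b and Eif3c) and 8 lower, Eif3g at -0.62 ± 0.16 being the additional one, although Eif3g turned to 0.15 with scaling to totals. The LPS+ET+KU calls of Eif3b and Eif3g were lost without any one of LUL15, LUL17 or LUL18 (0.52 to 0.59 and -0.59 to -0.70), and that of Eif3c without LUL15 or LUL17 (0.59 and 0.60).

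**Figure D2:**
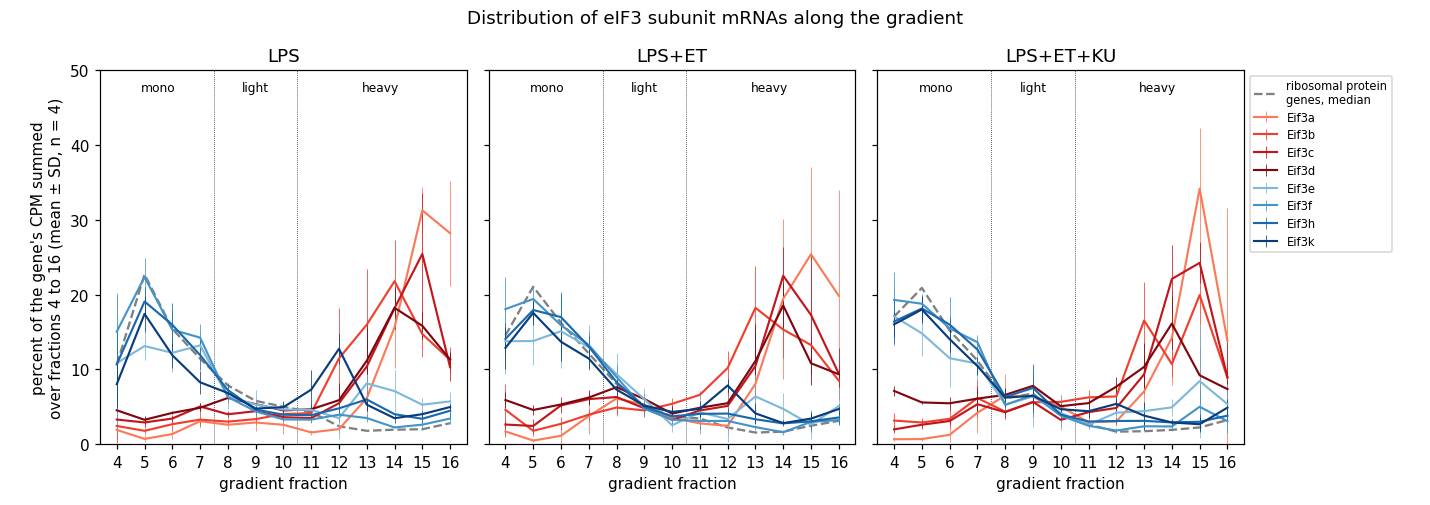
Distribution of 8 eIF3 subunit mRNAs over fractions 4 to 16, as percent of each gene's summed CPM (mean ± SD of 4 gradients), in each treatment; the dashed line is the median of 75 ribosomal protein genes. Eif3f, Eif3h and Eif3k peak in fraction 5 in LPS, as the ribosomal protein genes do, and Eif3a and Eif3c peak in fraction 15.

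Single fractions showed these positions at finer grain. In LPS, 22.3% of the Eif3f signal was in fraction 5, where the ribosomal protein genes also peaked with a median of 22.7%, and 31.2% of the Eif3a signal was in fraction 15. RiboLoad, the share of a gene's signal in heavy polysomes after each fraction was scaled to the same total, was 19.1% ± 2.41 for Eif3f and 26.6% ± 2.52 for Eif3h, against 84.8% ± 3.28 for Eif3a and 79.4% ± 2.27 for Eif3b (SD, n = 4). Across the 12 eIF3 subunits, longer coding sequences went with higher log2 ratios (Pearson's r 0.78, Spearman's rho 0.68, a description across genes of the same libraries). Over all 51 members r was 0.18 and rho 0.14, and over 9003 of the 9659 genes tested r was 0.32 and rho 0.27.

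The 4 members that are widely listed as TOP mRNAs (Eif3e, Eif3f, Eif3h and Eif4b) were lower in heavy polysomes in each of the 3 treatments, with a median of -2.15 in LPS. That median was -2.56 with etoposide and -2.85 with the inhibitor added. Of the cytosolic ribosomal protein genes, 66 of 67 were lower in LPS (median -3.25), 59 of 60 in LPS+ET (-3.74) and 69 of 70 in LPS+ET+KU (-3.75). Each treatment was fitted with its own zero. Tested directly, the ratio changed by a median of -0.35 (LPS+ET against LPS) and -0.20 (LPS+ET+KU against LPS+ET) for the TOP members, none called. For the ribosomal protein genes it was -0.38 (6 of 71 called lower, 2.51% of all genes called) and -0.08 (none called). To show the sequence around the start of selected members, the 20 bases on each side of the RefSeq transcription start (GRCm38.p6, the mRNA begins at base 21) are printed 5′ to 3′ in lower case, with the longest run of C or T in capitals. The members shown toward monosomes are those that held a run of at least 8, and those shown toward heavy polysomes are among the ones without. Of the TOP members only Eif3f is shown. Eif3e and Eif3h had no RefSeq start region, and Eif4b had a longest run of 7. Members placed toward monosomes come first, Eif3f (chr7:108934395-108934434, plus strand), Eif3m (chr2:105017008-105017047, minus strand), Eif3l (chr15:79075203-79075242, plus strand) and Eif2s3y (chrY:1010575-1010614, plus strand). Members placed toward heavy polysomes follow, Eif3a (chr19:60790674-60790713, minus strand), Eif3b (chr5:140419285-140419324, plus strand), Eif3c (chr7:126566347-126566386, minus strand) and Eif4g1 (chr16:20672707-20672746, plus strand).
Eif3f: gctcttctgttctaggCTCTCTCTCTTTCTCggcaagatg
Eif3m: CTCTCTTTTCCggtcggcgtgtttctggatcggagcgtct
Eif3l: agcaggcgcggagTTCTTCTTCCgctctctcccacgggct
Eif2s3y: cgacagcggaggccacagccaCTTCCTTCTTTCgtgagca
Eif3a: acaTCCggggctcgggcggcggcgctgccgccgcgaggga
Eif3b: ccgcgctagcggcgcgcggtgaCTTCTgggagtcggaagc
Eif3c: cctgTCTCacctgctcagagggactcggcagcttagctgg
Eif4g1: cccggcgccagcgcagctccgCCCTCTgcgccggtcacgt
A run of at least 8 C or T letters, sought only on the strand that reads as the mRNA does, was in this window in 4965 of 27025 genes (18.4%), 28 of 57 ribosomal protein genes (49.1%) and 10 of 43 Eif genes with a RefSeq start (23.3%). Among members called in LPS, 4 of 11 lower in heavy polysomes held one (36.4%, the 4 printed first) and 1 of 15 higher ones did (6.67%). The run of Eif3m, at bases 1 to 11, lies wholly before this RefSeq start. It lies inside the gene as annotated for the counts, which on this minus strand begins at 105017079, so whether the run is part of the mRNA is not settled. The windows of Eif4g1, Eif3c and Eif2s3y also lie inside the annotated genes, which begin at 20668312, 126566410 and 1010542. Whether the counted mRNAs begin at these RefSeq starts was not tested. Runs that reached the part transcribed by the RefSeq start were in 3 of the 11 lower members (27.3%), 1 of the 15 higher ones, 8 of all 43 (18.6%), 21 of the 57 ribosomal protein genes (36.8%) and 10.5% of all genes. Eif3k and Eif4b, each with a longest run of 7, and Eif2a and Eif4a2, with 4, were lower in heavy polysomes without such a run.

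Of the eIF4F genes and their relatives, Eif4g1 and Eif4g2 were called higher in heavy polysomes in all 3 treatments. Eif4g1, the main scaffold of eIF4F, had ratios of 1.75, 1.62, 2.58 and 1.97 in LPS, for an estimate of 1.95 ± 0.14 (edgeR adjusted p 1.46e-13), and 32.1% of its signal was in fraction 16. Eif4e was placed near the typical gene in LPS, at -0.07 ± 0.13, and was not called in any treatment. Its cofactors differed in direction. Eif4b, which stimulates the helicase, was lower in heavy polysomes (-1.33 ± 0.12 in LPS), while Eif4h, a related stimulator, was higher (0.66 ± 0.13). Eif4a1 was higher (0.62 ± 0.12). Eif4a2 was lower, with ratios of -1.42, -2.35, -1.94 and -1.96 and an estimate of -2.32 ± 0.35, on 7 to 19 monosome counts per gradient. With equal weight per fraction the calls of Eif4b (-0.32) and Eif4a2 (-1.12) were lost, and the LPS+ET call of Eif4g2 was lost without any one of LUL15, LUL17 or LUL18 (0.68 to 0.76).

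Of the eIF4E binding proteins, Eif4ebp1 and Eif4ebp2, the inhibitors controlled by mTOR, were lower in heavy polysomes in LPS, at -1.27 ± 0.15 and -1.56 ± 0.14, and Eif4ebp3 was higher, with ratios of 1.97, 0.96, 1.66 and 1.53 and an estimate of 1.53 ± 0.21 (edgeR adjusted p 2.03e-07). The first and the last have annotated coding sequences of 351 and 303 bases, but tags at the 3′ end do not show which coding sequence an mRNA holds. The site counted for Eif4ebp3, at 36665923, lay just past the annotated end of the gene at 36665916. Sites of other members did so too, such as that of Eif3b (140443362 against 140443357). The Eif4ebp3 signal peaked in fraction 16 (32.9%). Which mRNA gave the Eif4ebp3 tags was not tested. Eif4ebp3 had 8 to 19 monosome counts and 201 to 252 heavy polysome counts per gradient. Its RiboLoad was 78.2% ± 7.33, against 25.9% ± 1.63 for Eif4ebp1. Eif4ebp1 had its largest share in fraction 9, 21.4% of its signal, and was called higher in light polysomes than in monosomes (0.91 ± 0.13). With equal weight per fraction, heavy polysomes against monosomes gave -0.18 for Eif4ebp1 and -0.52 for Eif4ebp2, without a call.

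The eIF2 group was mixed as well. Eif2s1, the alpha subunit that the kinases phosphorylate, was higher in heavy polysomes (1.43 ± 0.15 in LPS), Eif2s2 and Eif2s3x were not called in LPS, and Eif2s3y, the Y-linked gamma subunit, was lower (-1.1 ± 0.12). Of the kinases, Eif2ak1 (HRI) was called higher in each treatment, at 0.93 ± 0.15, 1.35 ± 0.22 and 1.53 ± 0.17. Eif2ak2 (PKR) and Eif2ak3 (PERK) were called only in LPS+ET+KU, at 0.83 ± 0.23 (lost without LPS+ET+KU LUL17) and 0.83 ± 0.19, and their ratios did not pass the test of a difference between LPS+ET and LPS or between LPS+ET+KU and LPS+ET. Eif2ak4 (GCN2) was not called, on 31 to 111 counts per gradient. Of 5 eIF2B subunits, Eif2b3 and Eif2b5 were called higher in LPS (0.57 ± 0.17 and 0.49 ± 0.14), the first lost without LUL16 or LUL18 (0.52 and 0.54) and the second without LUL15 (0.39). Eif2a, an alternative carrier of initiator tRNA, was lower, with ratios of -1.67, -1.5, -1.92 and -1.59 and an estimate of -1.70 ± 0.15, and so was Eif2d at -0.68 ± 0.18, which became 0.04 with scaling to totals and lost its call without LUL15 or LUL18 (-0.64 and -0.65). The calls of Eif2s3y (-0.30) and Eif2a (-0.85) in LPS were lost with equal weight per fraction.

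Among the factors of scanning and subunit joining, Eif5b, the GTPase that joins the subunits, had ratios of 1.45, 1.1, 2.22 and 1.97 in LPS (estimate 1.67 ± 0.15), and Eif1a, Eif1ax and Eif5 were also called higher, Eif5 not without LUL15 (0.41 against 0.43). Eif1, which guards start codon choice, was lower in heavy polysomes (-0.96 ± 0.12, but -0.23 and not called with scaling to totals) and higher in light polysomes than in monosomes (0.85 ± 0.09). Eif6, which keeps the large subunit from joining too early, was the highest member, with ratios of 2.39, 2.43, 1.96 and 2.39 and an estimate of 2.32 ± 0.13 (edgeR adjusted p 5.56e-16). Its signal peaked in fraction 12, not in the last fractions as that of Eif4g1 and Eif5b did.

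Light polysomes against monosomes in LPS gave 14 members higher and 16 lower of 50 tested, against 40% of all genes (20.9% higher and 19.1% lower). Scaling to totals gave 23 higher and 10 lower, for which shares of all genes are not given. With TMM, 9 of 12 eIF3 subunits were called, all lower, while 5 of 6 scanning factors and all 3 of Eif5a, Eif5a2 and Eif6 were called higher. Eif5a was the highest member at 1.69 ± 0.1 and Eif3f the lowest at -2.26 ± 0.1. Of these calls, Eif3c (-0.37 ± 0.1) became 0.10 with scaling to totals and 0.13 when each fraction had equal weight, and Eif3g and Eif4a3 became 0.16 and 0.40 under equal weight. The call of Eif5a2 was lost without any one gradient (1.02 to 1.28), and that of Eif3c without LUL15 or LUL18 (-0.40 and -0.31).

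LPS+ET was next compared with LPS, on the counts of fractions 4 to 16 summed per gradient. If the LPS cells were taken at 48 h, as labelled, LPS+ET also had 4 h more of culture, which cannot be told apart from etoposide. One of 52 members was called in LPS+ET against LPS, Eif4e, against 12.7% of all 12755 genes (1618 genes). An unadjusted p under 0.05 was found for 7 of the 52 and for 4384 of the 12755 genes. The median log2 fold change of the members was -0.08, and that of all genes 0.03. With the pool as a block, 4 members were called (26.7% of all genes), all lower, namely Eif4e, Eif5a (-0.73 ± 0.17), Eif1a (-0.82 ± 0.19) and Eif2s3y (-0.52 ± 0.12).

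Eif4e (ENSMUSG00000028156, chromosome 3, 138526190 to 138557598, plus strand) encodes the cap-binding protein, often described as a limiting factor of initiation. It had 91.1, 86.5, 60.8 and 71.7 CPM in LPS, 60.1, 37.8, 41.1 and 48.3 CPM in LPS+ET, and 48.6, 47.5, 34.2 and 44.4 CPM in LPS+ET+KU. All LPS+ET gradients lay below all LPS gradients, by a narrow margin between pool LUL15 of LPS+ET and pool LUL17 of LPS, and in each pool LPS+ET was lower. The log2 fold change was -0.85 ± 0.18 (edgeR adjusted p 0.00419), a 1.80-fold lower level, and -0.84 ± 0.14 with the pool as a block (adjusted p 0.000302). The call was lost without any one of LPS LUL15, LUL16 or LUL18 or LPS+ET LUL17 or LUL18 (log2 -0.77 to -0.90), with equal weight per fraction (-0.71) and with scaling to totals (-0.73). Adding KU55933 left Eif4e at -0.10 ± 0.18 relative to LPS+ET, not called, and it stayed lower than in LPS (-0.95 ± 0.18, adjusted p 0.00267, lost without LPS LUL15 or LUL16).

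**Figure D3:**
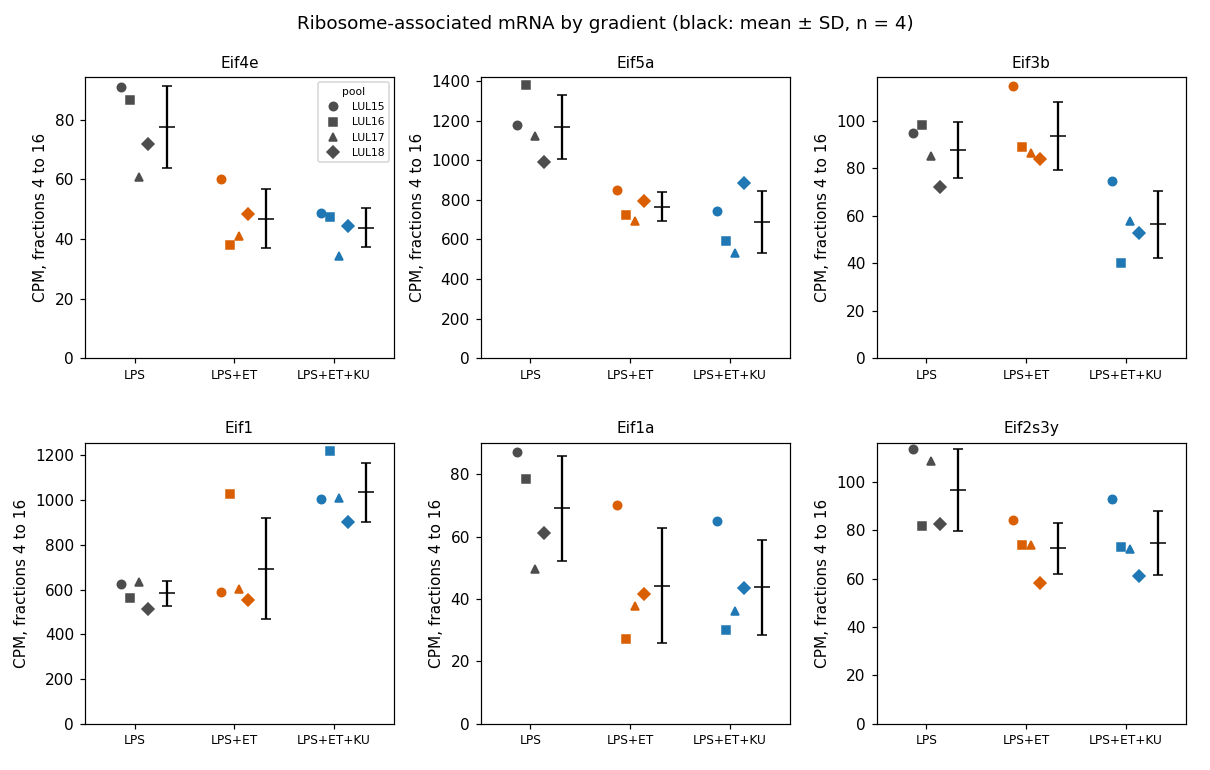
CPM over fractions 4 to 16 of 6 Eif mRNAs in each of the 12 gradients, by treatment and pool (symbols), with mean ± SD of 4 gradients in black. Eif4e lies between 60.8 and 91.1 CPM in LPS and between 37.8 and 60.1 in LPS+ET; Eif1 lies between 904 and 1220 CPM in LPS+ET+KU.

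By class, Eif4e was the only member called in monosomes (1 of 49, against 9.52% of all genes) and in light polysomes (1 of 51, against 10.6%), and none of 52 was called in heavy polysomes (9.69%). In monosomes it had 58.2, 57.9, 47.1 and 46.8 CPM in LPS and 33.2, 31.2, 18.6 and 17.1 in LPS+ET (log2 -1.02 ± 0.21, edgeR adjusted p 0.00331, lost without LPS+ET LUL17 or LUL18 and with equal weight). In light polysomes it had 77.7, 101.8, 70.3 and 65.9 CPM in LPS and 45.9, 42.3, 24.1 and 33.9 in LPS+ET (log2 -1.24 ± 0.24, adjusted p 0.00244, lost without LPS LUL16). The LPS and LPS+ET gradients did not overlap in either class. In heavy polysomes LPS had 106.6, 85.0, 60.3 and 80.6 CPM and LPS+ET 72.0, 37.98, 49.8 and 59.4, which overlapped, and the log2 difference was -0.68 ± 0.23 (adjusted p 0.052; 0.00977 with the pool as a block). The counts at an unadjusted p under 0.05 were 8, 8 and 6 members in the 3 classes. Over all genes they were 2863 of 8932, 3233 of 9922 and 3610 of 11368. DESeq2 called 1 member in heavy polysomes.

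**Figure D4:**
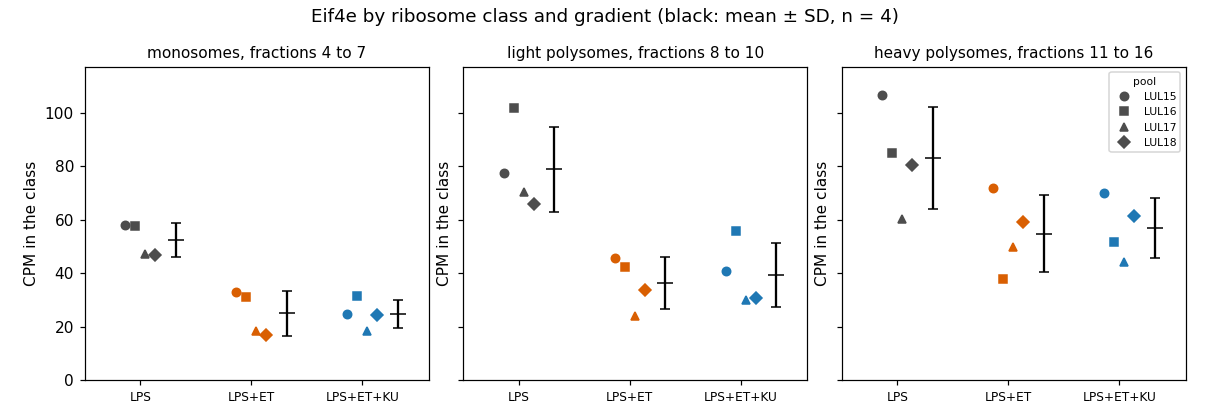
CPM of Eif4e in monosomes, light polysomes and heavy polysomes in each gradient, by treatment and pool, with mean ± SD of 4 gradients in black. In monosomes and light polysomes every LPS gradient is above every LPS+ET gradient; in heavy polysomes LPS LUL17, at 60.3 CPM, is below LPS+ET LUL15, at 72.0.

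With the pool as a block, 6 members were called in monosomes (24.6% of all genes), 6 in light polysomes (25%) and 4 in heavy polysomes (20.6%). In monosomes these were Eif4e, Eif1ad (-0.79 ± 0.22) and Eif5b (-0.57 ± 0.16), lower in LPS+ET, and Eif1 (0.45 ± 0.11), Eif3d (0.56 ± 0.12) and Eif3k (0.41 ± 0.11), higher. In light polysomes they were Eif4e, Eif5a (-0.75 ± 0.18) and Eif1a (-0.90 ± 0.21), lower, and Eif2b5 (0.62 ± 0.17), Eif3a (0.86 ± 0.20) and Eif4b (0.56 ± 0.14), higher. In heavy polysomes Eif4e, Eif5a, Eif1a and Eif2s3y were called, all lower.

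Whether etoposide moved members along the gradient was tested as the difference of the heavy to monosome ratio between treatments. In LPS+ET against LPS, none of 52 members was called by edgeR, against 2.51% of all genes, and 0 by DESeq2. At an unadjusted p under 0.05 there were 10, against 2550 of all 11463 genes. With the pool as a block 1 member was called (6.19% of all genes), Eif3k, an eIF3 subunit, whose ratio was lower by log2 -0.84 ± 0.22 (adjusted p 0.0059). On the scale of all 12 gradients together, its log2 ratios were -1.09, -0.87, -2.08 and -1.63 in LPS, -1.84, -2.79, -2.26 and -2.17 in LPS+ET, and -2.17, -2.47, -2.37 and -2.44 in LPS+ET+KU. LPS LUL17, at -2.08, fell within the range of LPS+ET.

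The ATM inhibitor was examined as LPS+ET+KU against LPS+ET, 2 groups that differ by KU55933. No group had KU55933 without etoposide. An altered response to etoposide therefore cannot be told apart from an effect of the inhibitor itself. In the summed fractions none of 52 members was called by edgeR (0.455% of all genes), and DESeq2 called 1. At an unadjusted p under 0.05 there were 9, against 2031 of all 12755 genes. None was called by edgeR in monosomes (0.213%), light polysomes (0.292%) or heavy polysomes (0.572%). An unadjusted p under 0.05 was found for 4, 5 and 7 members. Over all genes it was found for 1204 of 8932, 1515 of 9922 and 1691 of 11368. DESeq2 called 3 in heavy polysomes, and 0 in the other classes. The ratio gave none by edgeR either (0.0262% of all genes), and 1 by DESeq2. At an unadjusted p under 0.05 there were 7, against 1188 of all 11463 genes. Shares of all genes called by DESeq2 are not given here. With the pool as a block, 1 member was called in the sums (6.36% of all genes), 2 in monosomes (5.62%), 0 in light polysomes (5.35%), 1 in heavy polysomes (3.27%) and 1 for the ratio (0.332%).

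Those calls under the block concerned 3 genes. Eif3b, a scaffold subunit of eIF3, had 94.9, 98.4, 85.1 and 72.3 CPM in LPS, 114.8, 89.2, 86.4 and 83.8 in LPS+ET, and 74.7, 40.3, 57.9 and 52.6 in LPS+ET+KU. The LPS+ET+KU gradients all lay below the LPS+ET gradients. The log2 difference was -0.73 ± 0.18 (edgeR adjusted p 0.0503) and -0.74 ± 0.16 with the block (adjusted p 0.00713). Its heavy to monosome ratio was 1.64, 1.94, 1.72 and 1.99 in LPS+ET and 0.81, 0.34, 0.99 and 0.88 in LPS+ET+KU on the scale of all gradients, again without overlap, with log2 -1.1 ± 0.23 under the block (adjusted p 0.00706). Eif1 had 625, 563, 633 and 512 CPM in LPS, 591, 1029, 602 and 554 in LPS+ET, and 1007, 1220, 1011 and 904 in LPS+ET+KU. In heavy polysomes it had 346, 322, 414 and 353 CPM in LPS+ET and 714.5, 555, 879 and 833 in LPS+ET+KU, every gradient with the inhibitor above every one without, for log2 0.96 ± 0.22 (edgeR adjusted p 0.0372) and 0.94 ± 0.17 with the block (adjusted p 0.00289). Eif1 was also called under the block in monosomes (0.53 ± 0.1), as was Eif3l, lower at -0.54 ± 0.12.

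LPS+ET+KU against LPS shares its LPS gradients with the etoposide comparison. Here 3 of 52 members were called, all lower (10.7% of all genes), namely Eif4e, Eif5a and Eif3b. At an unadjusted p under 0.05 there were 16, against 4584 of all 12755 genes. Eif5a had 1180.0, 1378, 1122 and 993 CPM in LPS, 852, 724, 692 and 796 in LPS+ET, and 741, 594, 531 and 885 in LPS+ET+KU. Every LPS gradient was above every gradient of the other groups, and the log2 difference of LPS+ET+KU from LPS was -0.88 ± 0.19 (edgeR adjusted p 0.00604). That of Eif3b was -0.76 ± 0.18 (adjusted p 0.00919), with pool LUL15 of LPS+ET+KU, at 74.7 CPM, above pool LUL18 of LPS, at 72.3. Both calls were lost with scaling to totals (-0.76 and -0.64), with no filter on low counts, and when LPS+ET was left out of the fit, and that of Eif3b also with equal weight (-0.44). The call of Eif5a was lost without any one LPS gradient or LPS+ET+KU LUL15, LUL16 or LUL17 (-0.77 to -0.95). That of Eif3b was lost without any one LPS gradient, LPS+ET LUL15, LUL17 or LUL18, or LPS+ET+KU LUL16, LUL17 or LUL18 (-0.63 to -0.84). With the pool as a block 11 members were called (28.1% of all genes), 10 lower and Eif1 higher (0.70 ± 0.16). The lower ones included Eif2s1 (-0.87 ± 0.17), Eif4g1 (-0.62 ± 0.13), Eif5b (-0.73 ± 0.14), Eif4a2 (-0.98 ± 0.27) and Eif4a3 (-0.89 ± 0.18), a helicase of the exon junction complex.

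None of the Eif mRNAs whose levels follow, chosen for their roles, was called by edgeR without the block in any treatment comparison. Eif4g1 had 228, 194, 235 and 235 CPM in LPS, 229.9, 222, 182 and 217 in LPS+ET, and 169, 138, 140.2 and 184 in LPS+ET+KU. Eif4g2, a relative of eIF4G without the eIF4E site, had 1005, 666, 711 and 629 in LPS, 1259, 443, 679 and 621 in LPS+ET, and 988, 446, 569.8 and 632 in LPS+ET+KU. Its pool LUL15 was highest in every treatment. Eif4a1 had 224, 199, 141 and 118 CPM in LPS, 238, 211, 119 and 134 in LPS+ET, and 225, 175, 90.8 and 118 in LPS+ET+KU, with pools LUL15 and LUL16 above the others each time. Eif4a2 had 1.99 to 2.75 CPM in LPS, 1.45 to 2.36 in LPS+ET and 0.839 to 1.77 in LPS+ET+KU. Eif4b had 150.5, 132, 174 and 130.1 CPM in LPS, 147, 165, 171 and 139 in LPS+ET, and 122, 102, 134 and 121 in LPS+ET+KU. The treatments overlapped for Eif4g1 and Eif4b between LPS and LPS+ET. Eif4ebp1 had 33.4, 44.1, 42.9 and 38.5 CPM in LPS, 33.7, 96.0, 29.6 and 34.4 in LPS+ET, and 44.8, 97.8, 34.7 and 37.7 in LPS+ET+KU, so that pool LUL16 stood above the other pools after etoposide with or without the inhibitor. Eif4ebp2 had 48.2, 48.9, 39.1 and 33.5 CPM in LPS, 66.6, 59.2, 45.9 and 45.1 in LPS+ET, and 56.3, 74.0, 35.9 and 41.4 in LPS+ET+KU.

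The 4 eIF2 alpha kinases each answer a different stress, and their levels overlapped between treatments. Eif2ak1 had 62.4, 77.95, 32.8 and 68.2 CPM in LPS, 93.8, 56.8, 53.8 and 94.1 in LPS+ET, and 74.6, 76.8, 48.3 and 87.5 in LPS+ET+KU. Eif2ak2, activated by double-stranded RNA, had 10.4, 13.2, 20.9 and 23.2 in LPS, 12.8, 7.34, 25.5 and 18.4 in LPS+ET, and 10.2, 4.71, 23.7 and 14.0 in LPS+ET+KU. Its pools LUL17 and LUL18 exceeded the other pools in every treatment. Eif2ak3, which senses unfolded protein in the endoplasmic reticulum, had 14.4, 11.6, 27.6 and 18.3 CPM in LPS, 13.2, 10.6, 34.8 and 21.4 in LPS+ET, and 15.4, 18.7, 43.1 and 21.7 in LPS+ET+KU. Eif2ak4, which senses uncharged tRNA, stayed between 4.34 and 5.94 CPM in all 12 gradients. The kinase target Eif2s1 had 57.1, 52.6, 53.8 and 58.5 CPM in LPS, 58.2, 33.1, 68.9 and 64.2 in LPS+ET, and 35.8, 24.8, 46.4 and 29.5 in LPS+ET+KU. The last lay below LPS in all 4 gradients.

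Eif5, Eif5b and Eif6 act late in initiation. Eif5 had 128, 120.3, 148 and 136 CPM in LPS, 138, 126, 171 and 162 in LPS+ET, and 164, 156, 204 and 158 in LPS+ET+KU. Eif5b had 181, 164, 253 and 282 in LPS, 199, 185, 174 and 213 in LPS+ET, and 127, 137, 137 and 165 in LPS+ET+KU. All LPS+ET+KU gradients of Eif5b were below the LPS+ET gradients, for log2 -0.44 ± 0.20 without a call. Eif6 had 243, 276, 169 and 224 CPM in LPS, 259.5, 117, 182 and 202 in LPS+ET, and 215, 151, 169.6 and 144 in LPS+ET+KU, which overlapped. Of the TOP members of eIF3, Eif3h had 723, 696, 667 and 611 CPM in LPS, 702, 927, 535 and 542 in LPS+ET, and 902, 862, 753 and 712 in LPS+ET+KU. Its mean CPM within each class, in LPS+ET and LPS+ET+KU, was 1786 and 1686 in monosomes, 614.7 and 624 in light polysomes, and 371.5 and 327.4 in heavy polysomes. The higher sum of Eif3h with the inhibitor was thus not seen to that extent within any class. Eif3f had 308 to 337 CPM in LPS, 254 to 428 in LPS+ET and 343 to 430.1 in LPS+ET+KU. Eif3e had 22.9 to 57.3, 27.6 to 49.4 and 25.9 to 64.5 CPM, with pools LUL17 and LUL18 above the others in every treatment.

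Other genes of the pathway were taken from a list of 25 in the table, of regulators and targets of the initiation factors that carry no Eif symbol. In the summed fractions 24 were tested, and 1 was called in LPS+ET against LPS, 0 in LPS+ET+KU against LPS+ET and 1 in LPS+ET+KU against LPS. Over all genes 12.7%, 0.455% and 10.7% were called in these comparisons. Atf4, the transcription factor whose translation depends on eIF2 phosphorylation, was lower in LPS+ET in the sums (log2 -1.12 ± 0.25, edgeR adjusted p 0.00576), in monosomes (-0.83 ± 0.17), in light polysomes (-1.1 ± 0.23) and in heavy polysomes (-1.30 ± 0.27). In heavy polysomes it was higher in LPS+ET+KU than in LPS+ET (1.70 ± 0.28, adjusted p 0.00659). Ppp1r15a, which encodes GADD34, the phosphatase subunit that reverses eIF2 phosphorylation, was higher there too (2.24 ± 0.37, adjusted p 0.00685), and higher in the sums in LPS+ET+KU than in LPS (2.01 ± 0.36). The heavy to monosome ratio in LPS+ET against LPS was called for 3 of 22 list genes (2.51% of all genes were called), all lower, Ppp1r15a (-1.34 ± 0.29), the helicase gene Ddx3x (-1.30 ± 0.31) and the poly(A) binding protein gene Pabpc4 (-1.19 ± 0.26). In LPS itself, 11 of 21 list genes were higher and 6 lower in heavy polysomes than in monosomes, where 29.5% and 29.9% of all genes were, among them Pabpc1 at -3.00 ± 0.12 and Ddx3x at 1.91 ± 0.16.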

How the data were processed

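PolyRibo 3′ end sequencing had been applied to 13 gradient fractions of 12 gradients of mouse B cells. The authors removed PCR duplicates with random barcode bases, trimmed A tracts, mapped tags to GRCm38 and deposited whole-number counts per gene and library, without normalization. The submitters' processing notes name TopHat2 2.0.12, HTSeq and DESeq2 1.6.3. Which aligner served these libraries, and whether strand was used, is not given in the sources used here. An additional library, of fraction 17 of an LPS gradient (777 counts), was not used.

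Counts were summed per gradient over fractions 4 to 16 and over each class, and tested with edgeR 4.0.16 (TMM, default filter, quasi-likelihood F-test, two-sided, Benjamini-Hochberg over all genes tested, adjusted p under 0.01, the study's threshold). Treatment comparisons used all 12 gradients. Comparisons of classes and of heavy to monosome ratios had a term per gradient, and fold changes are edgeR estimates. Per-gradient log2 ratios used TMM-scaled CPM with 0.5 added. A gradient is 1 replicate. The study calls its 4 replicates biological, without saying whether each came from its own animal, so p-values measure the spread between these gradients. Of 157 columns, 78 were matched to treatment and fraction only.

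Pools pair the gradients. Deviations of log2 CPM from treatment means over 10945 genes correlated at 0.373 to 0.858 within pools (12 of 12 pairs over 0.1) and at -0.652 to 0.357 between pools (8 of 36). The pairing comes from the column names, not from animals or days.

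The members and lists were chosen with earlier results of these data known. Members with values per gradient were those called in a treatment comparison, the 5 highest and 5 lowest heavy to monosome ratios called in LPS, and a list by role. Alternatives were DESeq2 1.42.0, limma 3.58.1, other scalings and filters, the block, and leaving out each gradient. Code was tested on simulated data (R 4.3.3, Python 3.11.15, numpy 2.4.6, pandas 2.3.3, scipy 1.17.1). Sequences came from RefSeq, GRCm38.p6.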

Additional observations from a re-analysis of the deposited data

Results flagged for a closer look

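In 8 of 150 groups of 4 gradients, the highest or lowest value of an Eif gene stood apart from the other 3 by Dixon's criterion, which chance alone meets in about 1 of 20 groups. Levels of pool LUL16 gave 3 of them, Eif1 at 1029 CPM in LPS+ET and Eif4ebp1 at 96.0 CPM with etoposide alone and at 97.8 CPM with the inhibitor added. Eif5 reached 204 CPM in LPS+ET+KU of pool LUL17. The other flags were log2 heavy to monosome ratios, namely Eif2a at -2.93 (LPS+ET+KU, LUL16), Eif2ak3 at 0.46 (LPS+ET+KU, LUL18), Eif4ebp2 at -2.89 (LPS+ET, LUL16) and Eif6 at 1.96 (LPS, LUL17). Pool LUL16 of LPS+ET, which holds 3 of the 8 values, is the shallowest gradient, with 6404957 counts.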

How the results depend on the processing

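The alternatives that left libraries under 100000 counts out of the sums, or scaled to library totals without TMM, were chosen after seeing the data. RLE size factors and the former moved no count of called members by over 1.5 times. Member counts called that moved by over 1.5 times follow. Of these alternatives, only the block has its shares of all genes given above. For LPS+ET against LPS sums (1 called), the count was 4 at an adjusted p under 0.05, 4 with the pool as a replicate block, 3 with DESeq2 and 0 with totals-only scaling or equal weight per fraction. For LPS+ET+KU against LPS+ET sums (0) it was 1 with the block and 1 with DESeq2. For LPS+ET+KU against LPS (3) it was 10 at 0.05, 11 with the block, 9 with DESeq2, 1 with totals-only scaling and 1 with no filter. For LPS+ET against LPS, monosomes (1) gave 3 at 0.05, 6 with the block and 0 with equal weight, light polysomes (1) gave 2 at 0.05 and 6 with the block, and heavy polysomes (0) gave 2 at 0.05, 4 with the block and 1 with DESeq2. For LPS+ET+KU against LPS+ET, monosomes gave 2 with the block, and heavy polysomes 1 at 0.05, 1 with the block and 3 with DESeq2. Without a replicate block, heavy polysomes against monosomes in LPS+ET+KU gave 20 (36 with it) and light polysomes against monosomes in LPS 17 (30 with it). The ratio comparisons gave 1 at 0.05 (LPS+ET against LPS), 1 with the block in each and 1 with DESeq2 (LPS+ET+KU against LPS+ET). The cause of these shifts was not tested.

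With 1 gradient left out, counts ran from 0 to 2, 0 to 1 and 0 to 6 for the 3 sums, 0 to 1 and 0 to 0 for monosomes, 0 to 2 and 0 to 0 for light polysomes, 0 to 0 for heavy polysomes, 33 to 35 (LPS), 20 to 35 (LPS+ET) and 29 to 35 (LPS+ET+KU) for heavy polysomes against monosomes, 26 to 28 for light polysomes, and 0 to 0 for the ratios. Without LPS+ET LUL16 the LPS+ET count was 35, against 27. Of 134 member calls followed through 1528 values under alternatives, 1317 kept direction and call, 204 lost the call and 7 reversed: Eif2d (0.04, LPS), Eif4e2 (0.22, LPS+ET+KU) and Eif3g (0.15, LPS+ET+KU) for heavy polysomes with totals-only scaling, and for light polysomes Eif3c (0.10 with totals-only scaling, 0.13 with equal weight), Eif3g (0.16) and Eif4a3 (0.40) with equal weight.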

Other observations

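Members whose counts follow the pool more than the treatment were seen after the values were examined. Eif2s3x, the X-linked gamma subunit of eIF2, had 174, 305, 1 and 62 counts in LPS, 175, 107, 1 and 61 in LPS+ET, and 153, 381, 5 and 64 in LPS+ET+KU, for pools LUL15 to LUL18. Pool LUL17 was lowest in every treatment. Eif3j2, a subunit of eIF3, had 1, 2, 54 and 57 counts in LPS, 10, 0, 101 and 77 in LPS+ET, and 3, 1, 116 and 56 in LPS+ET+KU, with pools LUL15 and LUL16 low in every treatment. The additional library of fraction 17 held 3 Eif counts, from 3 genes.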
